A study of Mus musculus with 12 samples.

Results

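The 2183 regions described here were short peaks of H3K4me3, trimethylation of lysine 4 of histone H3, to which no gene had been assigned in cardiomyocytes (CMs) of the adult mouse heart. They were taken from the study's set of 15848 peaks by 4 criteria. The peak lay on an autosome, carried no assigned gene, was under 2000 bases wide, and had a mean of at least 10 normalised reads over 6 ChIP–seq libraries. Of 3062 autosomal peaks without an assigned gene, 2642 were under 2000 bases wide, and 459 of those fell below the mean and were left out. The mean was thus one of the selection criteria and is given as a description only.

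H3K4me3 was measured by ChIP–seq with a Diagenode antibody in nuclei of ventricular CMs, sorted by flow cytometry for the CM nuclear marker PCM1. The comparison asks where the mark changes when CMs cannot burn fatty acids. Cpt1bcKO mice (genotype Cpt1b_CKO, αMHC-Cre with Cpt1b fl/fl, exons 10 and 11 floxed) lack in CMs the muscle isoform of carnitine palmitoyltransferase 1, the enzyme that lets long-chain fatty acids into mitochondria. CtrlCre mice (genotype Ctrl_Cre, αMHC-Cre with Cpt1b+/+) were littermates with the same Cre transgene, so both groups were exposed to the recombinase. The αMHC promoter confines Cre to CMs and is active before birth, so the Cpt1bcKO cells had lacked the enzyme for the whole postnatal life of the mouse. All mice were adult and on a C57BL/6 background, and each genotype had 3 ChIP libraries. The labels do not state whether these came from separate animals, so p-values measure only the spread between libraries. Less signal per nucleus and a smaller share of marked nuclei cannot be told apart in sorted bulk nuclei. The values were divided by a size factor for each library, so higher and lower here are relative to the other peaks. A change shared by all peaks would not show in them. By western blot the paper reports less H3K4me3 in sorted Cpt1bcKO CM nuclei. At the peak of the target gene Cpt1b itself, which is 9156 bases wide and covers its promoter, CtrlCre libraries had 428, 407 and 436 normalised reads and Cpt1bcKO libraries 572, 689 and 568. This peak is no test of the deleted exons.

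H3K4me3 is written by SET1 and MLL methyltransferase complexes, which find unmethylated CpG-rich DNA through CXXC-domain subunits, and is removed by KDM5 demethylases. The mark is concentrated at active promoters, whereas enhancers mostly carry the monomethyl form and only small amounts of the trimethyl form. In the heart it decorates the promoters of contractile and metabolic genes as broad domains in CMs. It also flanks active tRNA genes, which are transcribed by RNA polymerase III. A short peak without a promoter beside it can therefore be an internal start, an active enhancer, a tRNA gene or a start that the annotation lacks. It can also be a false peak, since the authors' peak calling allowed a set false discovery rate and input values were not used here.

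The sequences below show the range of DNA covered by these peaks and belong to the 6 peaks that open the results: the peak with the smallest p among those lower and among those higher in Cpt1bcKO, each with and without an annotated start, 1 tRNA gene peak, and the peak with the highest mean. Each is the plus strand of GRCm38.p6 (mm10), taken from RefSeq's copy of that build within the central 300 bases of the peak, with untranslated regions left out. Capitals mark CpG dinucleotides, except in upeak-11235, where they mark the tRNA gene.

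upeak-1066, chr2:27182557-27182797, in an intron and coding exon of Dbh, 241 bases with 5 CpG: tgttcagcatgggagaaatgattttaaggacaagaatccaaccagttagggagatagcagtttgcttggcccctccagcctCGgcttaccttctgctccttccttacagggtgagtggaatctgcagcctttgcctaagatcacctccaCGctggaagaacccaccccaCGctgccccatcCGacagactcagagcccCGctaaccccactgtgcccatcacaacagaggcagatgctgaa

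upeak-7756, chr9:21338089-21338388, within Slc44a2, 300 bases with 3 CpG: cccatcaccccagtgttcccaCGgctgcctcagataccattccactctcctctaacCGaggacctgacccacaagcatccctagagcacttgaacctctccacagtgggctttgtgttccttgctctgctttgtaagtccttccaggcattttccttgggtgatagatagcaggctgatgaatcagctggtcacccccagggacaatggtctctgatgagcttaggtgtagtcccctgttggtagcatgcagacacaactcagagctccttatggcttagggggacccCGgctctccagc

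upeak-2248, chr3:36405443-36405742, outside any annotated gene, 300 bases with 1 CpG: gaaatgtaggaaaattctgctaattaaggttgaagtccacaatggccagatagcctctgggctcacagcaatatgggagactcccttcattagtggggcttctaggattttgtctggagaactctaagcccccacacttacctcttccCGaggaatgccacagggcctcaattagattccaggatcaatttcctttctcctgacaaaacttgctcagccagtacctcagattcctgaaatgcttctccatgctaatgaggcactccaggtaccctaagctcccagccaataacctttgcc

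upeak-4641, chr5:121463834-121464046, within Tmem116, 213 bases with 3 CpG: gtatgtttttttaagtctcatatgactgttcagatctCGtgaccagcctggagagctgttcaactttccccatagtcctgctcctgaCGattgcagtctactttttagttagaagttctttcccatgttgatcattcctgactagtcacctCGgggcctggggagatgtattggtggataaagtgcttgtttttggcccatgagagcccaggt

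upeak-11235, chr13:21233860-21234159, 300 bases around n-TAagc17, an alanine tRNA gene at chr13:21234045-21234116 on the plus strand: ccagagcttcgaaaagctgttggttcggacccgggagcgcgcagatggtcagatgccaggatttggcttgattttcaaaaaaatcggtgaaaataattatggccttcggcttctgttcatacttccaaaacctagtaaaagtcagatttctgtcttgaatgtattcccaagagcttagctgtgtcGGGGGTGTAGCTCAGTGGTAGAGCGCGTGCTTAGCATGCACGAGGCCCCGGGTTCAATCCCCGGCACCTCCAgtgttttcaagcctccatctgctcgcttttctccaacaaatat

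upeak-14970, chr19:8774582-8774881, over a coding exon of Taf6l, 300 bases with 42 CpG: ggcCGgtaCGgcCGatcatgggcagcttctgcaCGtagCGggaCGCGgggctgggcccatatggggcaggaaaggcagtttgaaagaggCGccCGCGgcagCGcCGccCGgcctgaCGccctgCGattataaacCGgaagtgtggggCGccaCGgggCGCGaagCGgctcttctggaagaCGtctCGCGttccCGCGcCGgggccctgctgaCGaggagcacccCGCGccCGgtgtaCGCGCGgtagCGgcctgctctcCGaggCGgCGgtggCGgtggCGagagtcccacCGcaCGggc

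Of the 5 peaks shown that differed by genotype, 4 held 5, 3, 1 and 3 CpG and the tRNA gene peak held 14, against 42 in the peak with the highest mean. A tRNA gene carries its promoter boxes inside the transcribed stretch, here 72 bases long.

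The libraries differed in depth. Reads within peaks, recovered as whole counts, ranged from 763133 in CtrlCre replicate 2 to 2766416 in Cpt1bcKO replicate 2. The median short unassigned peak held 11 counts in CtrlCre replicate 2 and 20 to 37 counts in the other 5 libraries, so counting error alone at that median was 30.2% in the shallowest library and 16.4% in the deepest. A count of 3, used here as the floor, equals 6.97 normalised reads in CtrlCre replicate 2 and 1.95 to 3.39 in the others, and 162 of the short unassigned peaks lay at or under it in CtrlCre replicate 2, against 3 to 23 elsewhere. Pairs of libraries correlated at 0.713 to 0.862 over the short unassigned peaks (Pearson's r across peaks on the log2 scale, 15 pairs of libraries) and at 0.914 to 0.967 over all tested peaks. Peaks are not independent replicates, and low counts enter both ranges. As a check of the sorted cells, all 10 CM marker genes had a promoter peak, with means of 455 to 2344 normalised reads. Of the markers of other cells, Kdr of endothelial cells (53.5), Pdgfra of fibroblasts (62.2) and Kcnj8 of mural cells (28.3) had one, and none of the 4 immune markers did. None of these marker peaks was called between the genotypes. The CM marker peaks summed to 8344 to 9940 normalised reads in CtrlCre and 6415 to 9235 in Cpt1bcKO, and the part of this difference in the results below was not tested.

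At the edges of the selection the peaks graded into those left out. The widest peaks inside the limit were 1993 and 1992 bases wide, with means of 24.3 and 132 normalised reads, and the narrowest outside it were 2000 and 2005 bases wide, with means of 66.5 and 61. The lowest means inside were 10 and the nearest outside was 9.83. Because the mean pooled both genotypes, 140 peaks passed with a Cpt1bcKO mean under 10 and 78 with a CtrlCre mean under 10, and a peak of this kind had to differ to be included.

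Most short unassigned peaks were far from any annotated start. The distance from the peak to the nearest transcript start (GENCODE vM21 on the same build) was over 5000 bases for 1440 of 2183 peaks (66.0%), against 26.7% of the 420 unassigned peaks of 2000 bases or more and 0.0127% of the 7904 short peaks with an assigned gene. Assignment itself required a start within 5000 bases, so the last value follows from the rule. The lack of an assigned gene was a criterion here, so the 66.0% and the 26.7% are largely tied to that rule as well. Wide unassigned peaks also had a median width of 2972 bases, against 837, and the part of width in their share was not tested. A further 512 peaks (23.5%) overlapped a transcript start, 82 (3.76%) lay within 1000 bases of one, and 149 (6.83%) between 1000 and 5000 bases. Of the 743 with a start within 5000 bases, 577 had no 5′ end of a whole gene in that range, so the start was an internal one of a shorter transcript. Among the starts overlapped, 463 belonged to protein-coding genes and 26 to lincRNAs, long RNAs transcribed between genes.

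The summit of the peak lay in an intron for 901 peaks (41.3%), in an exon for 438 (20.1%) and outside any gene for 844 (38.7%). The nearest other peak was a median of 26.7 kb away, and 7.47% of the short unassigned peaks had another within 5000 bases. Some genes held several. In all 1214 of the peaks fell within 1072 protein-coding genes, 913 of these genes held 1, and 9 held 4 or more. These 9 were Fgfr2 with 7, Hdac9 and Pde4d with 6 each, Ldlrad4 and Maml3 with 5 each, and Dab2ip, Epb41l3, Syne2 and Trim2 with 4 each. The 7 of Fgfr2 are uncertain, since its annotated body in vM21 runs across neighbouring genes such as Tacc2 and Htra1.

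**Figure D1:**
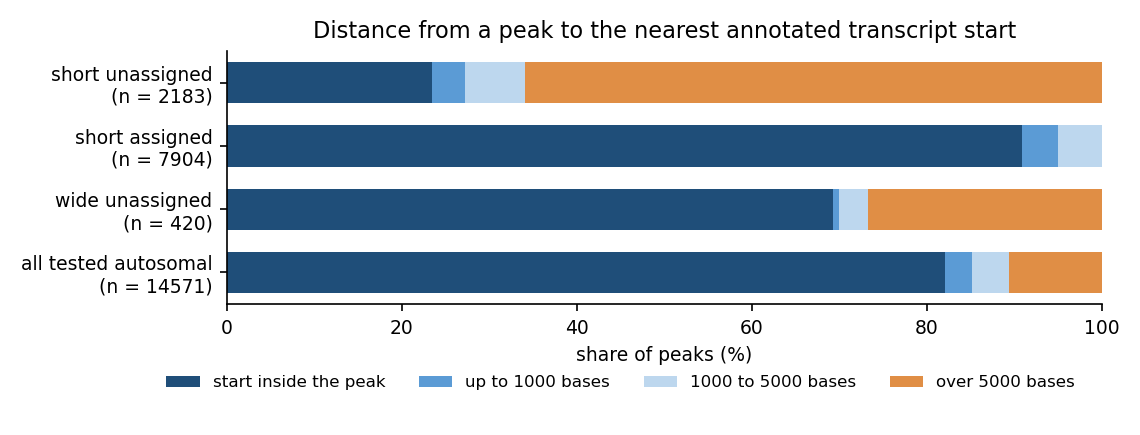
Distance from each peak to the nearest annotated transcript start in 4 classes, as a stacked percentage of each set of tested autosomal peaks, for the 2183 short peaks without an assigned gene and the sets they are compared with. Of the short unassigned peaks 66.0% lie over 5000 bases from a start, against 26.7% of the wide unassigned peaks, and both shares are tied to the lack of an assigned gene.

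The short unassigned peaks were narrow, low and poor in CpG. Their median width was 837 bases, against 1303 for short peaks with a gene, and their median level per length was 31.6 normalised reads per kb, against 70.7. Both bear on the selection and are descriptions. Sequence was no part of the rule. The median ratio of observed to expected CpG was 0.46, against 0.68 for short peaks with a gene, 0.33 for wide unassigned peaks and 0.65 for all autosomal peaks tested. By the criteria of over 50% GC and a ratio of over 0.6, 518 peaks (23.7%) were CpG-rich, against 66.2% of short peaks with a gene.

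Of 11 motifs searched on both strands of the central 300 bases, those of Sp/KLF and ETS factors were less common and those of MEF2, AP-1, GATA and TEAD factors and the TATA box more common than in short peaks with a gene. GGGCGG, the box bound by Sp and KLF factors, was present in 29.0% of the short unassigned peaks, 56.7% of short peaks with a gene and 47.1% of all autosomal peaks. CCGGAAGT of ETS factors was present in 1.42%, 4.43% and 3.17%. Conversely, CTANNNNTA, a core of the site of MEF2 (a transcription factor of muscle genes), was present in 19.0%, 10.1% and 13.6%. TGANTCA of AP-1 was present in 8.06%, 2.94% and 4.30%, AGATAA of GATA factors in 11.4%, 4.45% and 6.38%, and CATTCC of TEAD factors in 15.0%, 9.31% and 11.3%. TATAAA, the TATA box, was present in 10.4%, 3.49% and 5.79%. CCAAT of NF-Y was present in 27.9%, 23.0% and 24.2%, and AGNGGGCGC of CTCF in 2.70%, 4.24% and 3.63%. TGCGCATGC of NRF1 was present in 1.19%, 1.34% and 1.05%, and TGACGTCA of CREB in 0.825%, 1.56% and 1.16%. Within the short unassigned peaks CTANNNNTA was present in 22.4% of those over 5000 bases from a start and 11.7% of those over a start, and AGATAA in 12.9% and 6.06%. These letters vary with base composition, GGGCGG holding a CpG and the AT-rich motifs favouring low GC, and a match is not a bound site. The 35 peaks that overlapped a VISTA element, a segment tested as an enhancer in mouse embryos, and the absence of any peak over the annotated primary transcript of a microRNA (46 of the short assigned peaks had 1) complete the overlap with annotated elements.

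The short unassigned peaks carried a smaller share of the H3K4me3 signal in Cpt1bcKO. They took 4.44, 4.48 and 4.65% of the normalised reads of all tested peaks in the CtrlCre libraries and 4.17, 4.27 and 4.28% in the Cpt1bcKO libraries. The genotypes did not overlap, with means of 4.52 ± 0.11% and 4.24 ± 0.061% (SD, n = 3 each). The difference in the log2 share was −0.09, and −0.0394 after quantile normalization. No p is given, since the peaks were chosen with results of these data known.

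Of the individual peaks, few were called. With limma on log2(value + 1) and Benjamini-Hochberg adjustment over all 15039 tested peaks, 22 of the 2183 were higher in Cpt1bcKO (1.01%, against 1.11% of all tested peaks) and 40 were lower (1.83%, against 1.82%). Both shares are near those of all peaks and are no result about these peaks. On simulated data 33% of 2-fold changes among these peaks were recovered, against 78% among all tested peaks, so like shares of calls need not be like shares of changes. Before adjustment (p under 0.05) 84 were higher (3.85%, against 5.84%) and 211 lower (9.67%, against 6.98%). Every Cpt1bcKO value lay above every CtrlCre value in 120 (5.50%, against 7.8%) and below in 264 (12.1%, against 8.46%). The median log2 difference was −0.09, against 0.01 for all tested peaks, and 60.8% of the peaks were below 0, against 48.8%. Between libraries of the same genotype the median over these peaks varied with a pooled SD of 0.0381 on the log2 scale. The median changed to −0.0239 with quantile normalization and to −0.0549 with a GC correction. A single peak had a median standard error of 0.33, against 0.15 over all tested peaks. For the 7904 short peaks with a gene the median was 0.02, and for the 420 wide unassigned peaks −0.09. Among the peaks whose mean was at least 10 in both genotypes, 17 of 1965 were higher and 31 lower, so 5 of the 22 and 9 of the 40 had passed the mean through 1 genotype. All 22 and all 40 called peaks had genotypes that did not overlap, with log2 differences of 0.49 to 2.39 (median 1.27) and −2.89 to −0.76 (median −1.40). This separation largely follows from choosing peaks by p, here and for each called peak named below, and is a description only. The added 1 shrinks the fold change of peaks with few reads. Without Cpt1bcKO replicate 3 only 6 were called higher, and without CtrlCre replicate 1 only 13 lower. Over all tested peaks the calls fell as well, from 167 higher to 85 and from 274 lower to 139 in the same settings.

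The median difference varied with the level of the peak. Among the 844 peaks with a mean of 10 to 20 normalised reads the median difference was −0.14 and 5 were called in each direction. With a mean of 20 to 50 (922 peaks) it was −0.09, with 8 higher and 25 lower. With 50 to 100 (283 peaks) it was −0.05, with 6 higher and 10 lower, and with 100 or more (134 peaks) it was −0.02, with 3 higher and none lower. Over all tested autosomal peaks in these 4 ranges, 0.513, 0.708, 1.15 and 1.40% were called higher and 0.641, 2.27, 2.74 and 1.55% lower, and nothing is read from the few calls among the short unassigned peaks. All autosomal peaks in the same ranges had medians of −0.07, −0.07, 0.00 and 0.02. Low values thus went with lower medians in all peaks as well, and the part of depth in these medians was not tested.

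**Figure D2:**
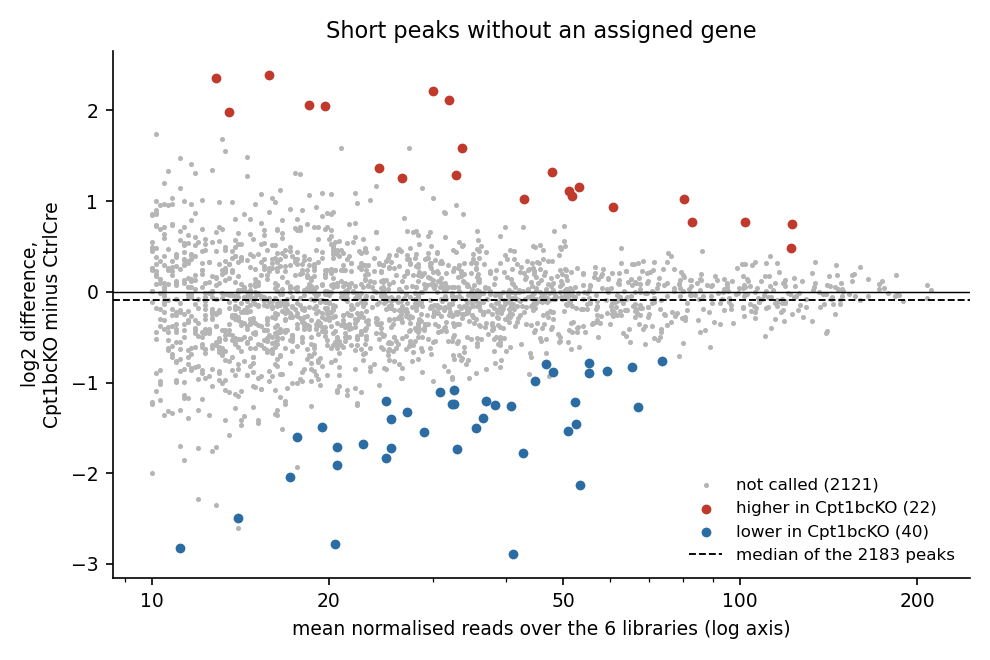
Log2 difference (Cpt1bcKO minus CtrlCre) of each of the 2183 short unassigned peaks against its mean in normalised reads on a log axis, with the 22 higher and 40 lower calls at an adjusted p under 0.05 coloured. The called peaks lie at means of 11.2 to 123, and the differences spread more widely at low means.

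Peaks poorer in CpG were more often lower, and those of the poorest class were also more often higher. In the 108 peaks with an observed to expected CpG ratio under 0.2, 23.1% were lower and 11.1% higher at an unadjusted p under 0.05, with a median log2 difference of −0.24. For ratios of 0.2 to 0.4 (704 peaks) the shares were 14.9% and 2.98% with a median of −0.18. For 0.4 to 0.6 (776 peaks) they were 6.31% and 3.35%, with a median of −0.08. For 0.6 to 0.8 (411 peaks) they were 5.35% and 4.14%, and for 0.8 and over (184 peaks) 5.43% and 4.35%, with medians of −0.03 and 0.00. The share of lower peaks thus fell with rising CpG ratio up to 0.6. This gradient was not particular to the short unassigned peaks, since over all tested autosomal peaks the lower shares were 32.6, 18.4, 7.42, 3.56 and 3.06% in the same classes. The higher shares over all tested autosomal peaks fell as well, at 9.49, 7.27, 6.50, 5.55 and 4.65%. By the joint criteria, 1 CpG-rich peak was called higher and 3 lower of 518, and 21 (1.26%) and 37 (2.22%) of the other 1665. The latter shares are near the 1.11% and 1.82% of all tested peaks.

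**Figure D3:**
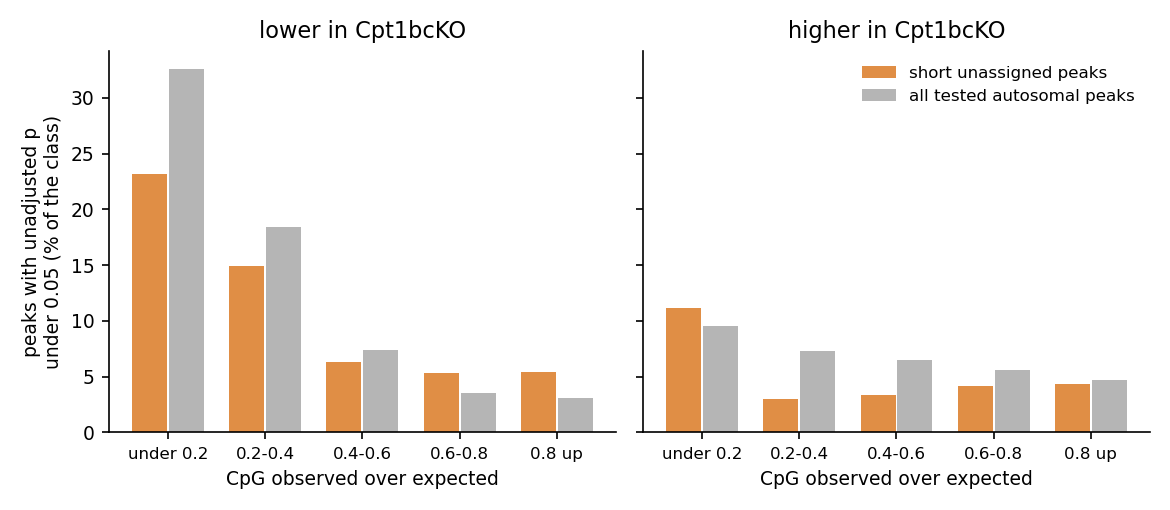
Percentage of peaks lower and higher in Cpt1bcKO at an unadjusted p under 0.05, by class of observed to expected CpG ratio, for the short unassigned peaks and for all tested autosomal peaks. Lower peaks make up 23.1% of the short unassigned peaks and 32.6% of all peaks in the class with the fewest CpG.

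The median difference also varied with position. The shares of called peaks lay on either side of those of all tested peaks (1.11% higher and 1.82% lower). They rest on few calls in each class, and nothing is read from them. The median was −0.02 for the 512 peaks over a start, of which 7 were higher and 7 lower (1.37% each), and −0.13 for the 1440 peaks over 5000 bases from one, of which 12 were higher (0.833%) and 30 lower (2.08%). The 82 peaks within 1000 bases of a start had a median of −0.06 with none higher and 2 lower (2.44%). The 149 at 1000 to 5000 bases had −0.07 with 3 higher (2.01%) and 1 lower (0.671%). Among the distant peaks, the 571 with a summit in an intron had 1 higher (0.175%) and 15 lower (2.63%, against 1.82% of all tested peaks). The 776 outside genes had 10 higher (1.29%) and 11 lower (1.42%), and most of these 10 lay beside tRNA genes of chromosome 13, described below. The 93 with a summit in an exon had 1 higher (1.08%) and 4 lower (4.30%). The 35 peaks over VISTA elements had a median of −0.29 and none called after adjustment. At an unadjusted p under 0.05, 6 of them were lower (17.1%, against 6.98% of all tested peaks), and nothing is read from so few. Peaks with CTANNNNTA had a median of −0.19 and those without it −0.07, a motif picked from the 11 searched after its values were seen. Other motifs went either way, such as TATAAA with −0.14 against −0.08 and GGGCGG with −0.06 against −0.11. Distance, CpG content and level differ together among these classes, and their separate parts were not tested.

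The peak with the smallest p of all short unassigned peaks lay within Dbh, the gene of dopamine beta-hydroxylase, which turns dopamine into noradrenaline. This peak, upeak-1066 (chr2:27181754-27183661), lies 4661 bases from the nearest annotated start. It held 73, 88 and 59 normalised reads in CtrlCre and 8, 11 and 8 in Cpt1bcKO. The signal fell by 2.89 on the log2 scale (SE 0.30, limma adjusted p = 2.17e-06), from 73.3 ± 14.5 to 9 ± 1.73 (SD, n = 3 each). All 3 Cpt1bcKO libraries had about the same low value, above the floor of a count of 3. The Cpt1bcKO mean of upeak-1066 was under 10, so it entered the selection only through CtrlCre and its direction was fixed by the selection. The second, upeak-11773 (chr13:102349426-102351029), lies outside any gene, 16123 bases from a start. Its values were 71, 84 and 108 in CtrlCre and 23, 21 and 14 in Cpt1bcKO (log2 difference −2.13, SE 0.25, limma adjusted p = 1.05e-05). The third, upeak-10524 (chr11:120164159-120166142), lies outside any gene, 12813 bases from a start of Slc38a10, an amino acid transporter gene. It held 81, 93 and 112 against 37, 44 and 35 (log2 difference −1.27, SE 0.19, limma adjusted p = 0.000234).

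Several of the lower peaks lay inside genes whose own promoter peak was not called. In Slc44a2, a choline transporter-like gene, upeak-7756 (chr9:21337799-21338679) covers the start of a shorter transcript, 17101 bases from the 5′ end of a gene. It held 67, 63 and 68 normalised reads in CtrlCre and 19, 28 and 12 in Cpt1bcKO (log2 difference −1.77, SE 0.28, limma adjusted p = 0.000502). The promoter peak of Slc44a2 held 96.3 ± 12.1 and 82.7 ± 8.33 (log2 difference −0.22, limma adjusted p = 0.612). In Depdc5, which encodes a subunit of GATOR1, a complex that restrains mTORC1, the intronic upeak-4154 (chr5:32989718-32991610) held 82, 60 and 86 against 19, 34 and 25 (log2 difference −1.53, limma adjusted p = 0.000545). The Depdc5 promoter peak differed by 0.37 (limma adjusted p = 0.362). In Ap2b1, a subunit of the AP-2 clathrin adaptor, the intronic upeak-10040 (chr11:83391522-83393214) held 44, 67 and 64 against 23, 23 and 24 (log2 difference −1.26, limma adjusted p = 0.0046), and the promoter peak differed by −0.01. In each of these 3 genes the internal peak had no overlap of the genotypes. Whether the internal and promoter peaks differ in their response was not tested.

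Other lower peaks lay at noncoding transcripts or outside genes. At upeak-7875 (chr9:41474971-41475716), over a start of 3110039I08Rik, the values were 24, 40 and 45 in CtrlCre and 5, 7 and 2 in Cpt1bcKO (log2 difference −2.79, SE 0.47, limma adjusted p = 0.000977). At upeak-12536 (chr15:37733420-37734531), over a start within Ncald (a neuronal calcium sensor gene) and Gm49397, they were 67, 84 and 80 against 40, 23 and 22 (log2 difference −1.46). At upeak-11439 (chr13:46986370-46987779), over a noncoding exon of 2010001K21Rik, they were 47, 40 and 65 against 24, 10 and 12 (log2 difference −1.73). Outside genes were upeak-10374 (chr11:107201898-107203159) with 59, 81 and 80 against 36, 38 and 21, upeak-8777 (chr10:53462204-53463781) with 69, 46 and 45 against 25, 17 and 17, and upeak-14263 (chr17:79451081-79451891) with 45, 33 and 40 against 16, 7 and 12. The last lies 95990 bases from the nearest start, that of Cdc42ep3. In all 6 the CtrlCre libraries stood above the Cpt1bcKO libraries. Of these, upeak-7875 had a Cpt1bcKO mean of 4.67, under the limit of 10, so its direction was fixed by the selection.

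Of the 40 lower peaks, 20 had a summit in an intron, 30 lay over 5000 bases from a start and 7 overlapped one. Their median CpG ratio was 0.26 and their means ranged from 11.2 to 73.7 normalised reads. The 22 higher peaks had a median CpG ratio of 0.38 and means of 12.8 to 123, with 7 over a start, 12 over 5000 bases from one and 11 outside genes. These 11 include the 7 beside tRNA genes of chromosome 13 described below.

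**Figure D4:**
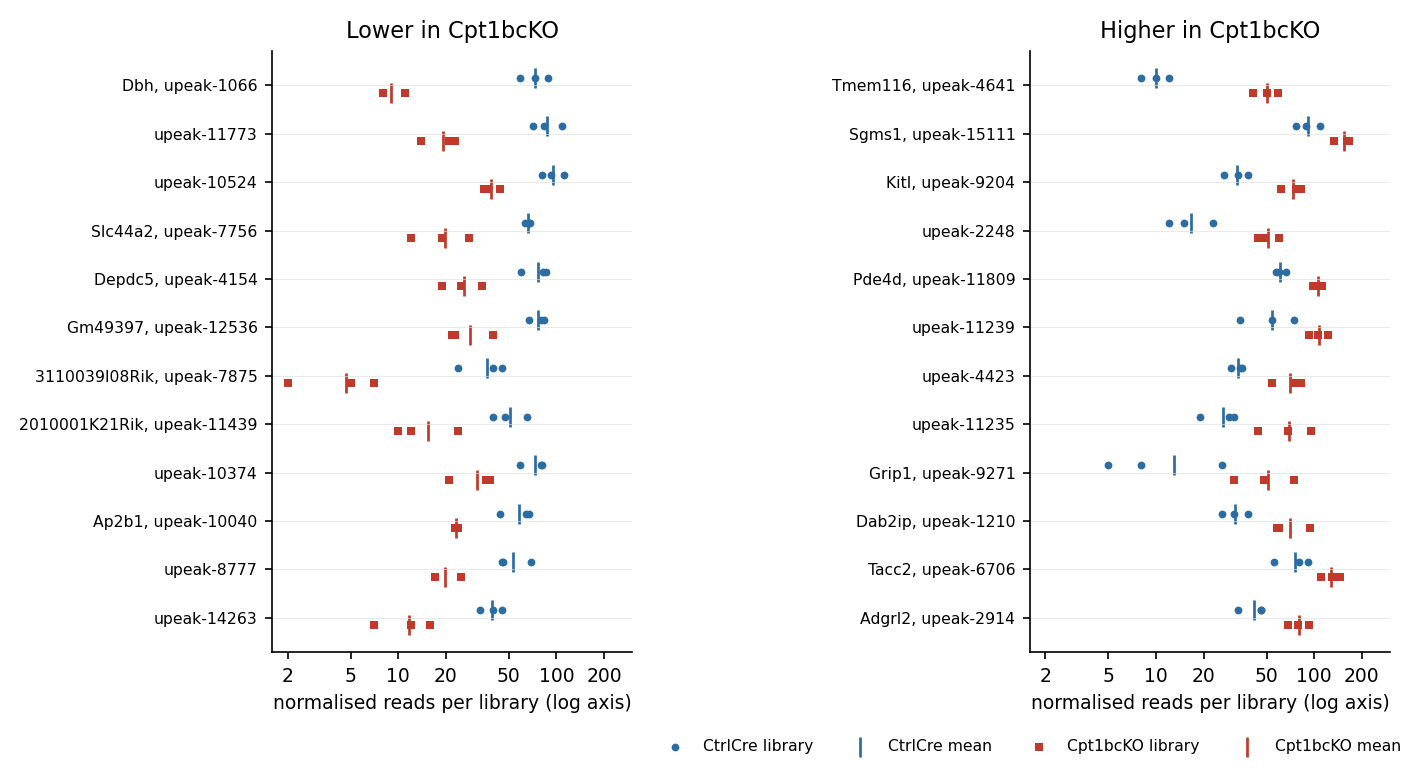
Normalised reads per library on a log axis for the named lower and higher peaks, 1 row a peak, with circles for CtrlCre libraries, squares for Cpt1bcKO libraries and bars for the genotype means, labelled by an overlapped gene where there is one. The 3 libraries of each genotype stay apart in every row, from 59 to 88 against 8 to 11 at the Dbh peak to 8 to 12 against 41 to 59 at the Tmem116 peak. This separation largely follows from choosing the peaks by p, and the direction of the Dbh peak was fixed by the selection.

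The higher peak with the smallest p, upeak-4641 (chr5:121463112-121464683), covers a start inside Tmem116, the gene of a transmembrane protein, 7705 bases from a gene's 5′ end. It held 8, 12 and 10 normalised reads in CtrlCre and 50, 59 and 41 in Cpt1bcKO. The means were 10 ± 2 and 50 ± 9 (SD, n = 3 each), with a log2 difference of 2.21 (SE 0.33, limma adjusted p = 0.000208). At Sgms1, which encodes a sphingomyelin synthase, upeak-15111 (chr19:32209519-32211364) covers an annotated start and held 89, 77 and 109 against 167, 160 and 134 (log2 difference 0.75, limma adjusted p = 0.00247). The peak assigned to Sgms1 lies 175161 bases away and differed by −0.14 (limma adjusted p = 0.621). At Kitl, the gene of the ligand of the KIT receptor, upeak-9204 (chr10:100087977-100089355) covers an internal start and held 27, 33 and 38 against 62, 77 and 82 (log2 difference 1.15, limma adjusted p = 0.00247). Outside any gene, upeak-2248 (chr3:36404692-36406494), 9495 bases from a start, held 12, 23 and 15 against 44, 48 and 60 (log2 difference 1.58, limma adjusted p = 0.00286). In these 4 peaks the lowest Cpt1bcKO library was above the highest CtrlCre library.

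Pde4d, a phosphodiesterase gene that breaks down cAMP and has many alternative starts, held 6 short unassigned peaks, of which 2 were called higher. At upeak-11809 (chr13:109260093-109261184) the values were 57, 60 and 66 in CtrlCre and 98, 105 and 112 in Cpt1bcKO (log2 difference 0.77, limma adjusted p = 0.00411). At upeak-11811 (chr13:109581061-109582406) they were 21, 35 and 29 against 54, 61 and 58 (log2 difference 1.03, limma adjusted p = 0.0187). The other 4 differed by 0.69, 0.41, 0.12 and −0.52 and were not called, so the peaks of this gene did not all share a direction. The gene was chosen for this description after its values were seen. Hdac9, a class II histone deacetylase gene, also held 6, with differences of −2.00 to 0.87 and none called.

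In Dab2ip, a Ras GTPase-activating protein gene, the internal and promoter peaks were called in opposite directions. The internal upeak-1210 (chr2:35691897-35693609) covers a start and held 38, 26 and 31 normalised reads in CtrlCre and 60, 58 and 94 in Cpt1bcKO (log2 difference 1.11, SE 0.24, limma adjusted p = 0.00801). The promoter peak of the gene went from 45 ± 12 to 20.7 ± 3.79 (log2 difference −1.07, SE 0.29, limma adjusted p = 0.0445). The remaining named peaks lay in Grip1, a scaffold of glutamate receptors, in Tacc2, a centrosomal coiled-coil gene, in Adgrl2, a latrophilin adhesion receptor gene, and outside any annotated gene at upeak-4423 (chr5:97135954-97137588). Grip1's upeak-9271 (chr10:119819024-119820104) held 5, 26 and 8 against 31, 48 and 74, with CtrlCre replicate 2 close to the lowest Cpt1bcKO value. Tacc2's upeak-6706 (chr7:130593340-130594640) held 80, 56 and 91 against 129, 145 and 111, Adgrl2's upeak-2914 (chr3:148958828-148959856) 46, 33 and 46 against 68, 79 and 93, and upeak-4423 35, 30 and 34 against 54, 83 and 75.

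Of the 22 higher peaks, 7 stood beside tRNA genes in a single stretch of chromosome 13. This grouping was noticed after the values were seen, and 3 of the 7 had a CtrlCre mean under 10 and so entered the selection only through their Cpt1bcKO values. In all 41 short unassigned peaks lay within 1000 bases of a tRNA gene annotated by RefSeq (1.88%, against 0.405% of short peaks with a gene), with chromosome 18 not analysed, and 31 overlapped the tRNA gene. Of the 41, 17 lay on chromosome 13, all at chr13:21199497-23498799, a stretch with 82 annotated tRNA genes and 24 histone genes. Their median log2 difference was 1.03, 16 of the 17 were above 0, 11 were higher and none lower before adjustment, and 7 were called higher after adjustment over all tested peaks. Of the 17, however, 7 had CtrlCre means of 4.33 to 8 and passed the limit on the mean only through Cpt1bcKO, so they had to be higher to be included and these counts support nothing. The other 10, with both genotype means of at least 10, had a median of 0.69, with 9 above 0, 6 higher before adjustment and 4 after it. The 24 beside tRNA genes elsewhere had a median of 0.04 and no limma call in either direction, with 2 higher and 1 lower before adjustment. Of all tested peaks, 5.84% were higher and 6.98% lower before adjustment, and 1.11% and 1.82% after it. tRNA genes have near-identical copies, and the authors kept uniquely aligned reads only, so the counts rest on the unique flanks and on copies with differences.

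The 7 called peaks of this stretch are named here by their tRNA gene, n-T being followed by the amino acid's letter and the anticodon. At n-TTtgt4, a threonine tRNA gene, upeak-11239 (chr13:21274925-21276575) held 34, 74 and 54 normalised reads in CtrlCre and 92, 105 and 123 in Cpt1bcKO (log2 difference 1.03, limma adjusted p = 0.00642). At n-TAagc17, the alanine gene shown above in capitals, upeak-11235 (chr13:21233377-21234644) held 29, 19 and 31 against 44, 68 and 96 (log2 difference 1.32, limma adjusted p = 0.00679). At n-TAagc7, upeak-11283 (chr13:23412221-23412962) held 4, 2 and 7 against 20, 17 and 45 (log2 difference 2.39, limma adjusted p = 0.0115). The genotypes stayed apart in all 3, and the CtrlCre values of the last lay at or near the floor. The other 4 were n-TAagc19 with 5, 16 and 3 against 20, 28 and 46, n-TTcgt4 with 3, 5 and 7 against 26, 19 and 21, n-TTagt4 with 14, 16 and 16 against 37, 39 and 38, and the phenylalanine gene n-TFgaa1 with 17, 28 and 12 against 35, 41 and 64. Their limma adjusted p-values were 0.0236, 0.0229, 0.0205 and 0.0307. Of the 7, n-TAagc7, n-TAagc19 and n-TTcgt4 had CtrlCre means under 10, so their direction was fixed by the selection.

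The genotypes overlapped at the highest peaks of the stretch. At the leucine gene n-TLcaa1 the values were 93, 95 and 111 in CtrlCre and 98, 108 and 91 in Cpt1bcKO, and at the methionine gene n-TMcat8 104, 95 and 102 against 106, 105 and 100. At n-TAagc10 the values were 4, 7 and 5 against 1, 11 and 58, so Cpt1bcKO replicate 3 alone set the mean. Across the 17 peaks that library was the highest of the 6 in 12. Without it the median was 0.85 and none of the 17 was called.

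Summed over the 17 peaks, the CtrlCre libraries held 487, 604 and 538 normalised reads and the Cpt1bcKO libraries 711, 847 and 1050. The 10 peaks that did not depend on Cpt1bcKO to be included held 451, 548 and 502 against 607, 732 and 789. The genotypes did not overlap in either sum, and the libraries of Cpt1bcKO differed more among themselves than those of CtrlCre. The sum over 17 holds the 7 peaks that had to be higher to be included, so its separation supports nothing. The 38 other tested peaks of the stretch summed to 3484, 3391 and 3521 against 3623, 3869 and 3792, with a median difference of 0.04, 3 higher and none lower. The 24 short unassigned peaks beside tRNA genes elsewhere summed to 2067, 2037 and 2152 against 2085, 2183 and 2060, which overlapped. The 97 other short unassigned peaks of chromosome 13 had a median of −0.08, with 2 higher and 3 lower. Outside the short unassigned set, 21 tested peaks beside tRNA genes of chromosome 13 had a median of 0.20 with 3 higher, and 64 beside those of other chromosomes −0.02 with none called (5 higher and 1 lower before adjustment). Over all tested peaks, 1.11% were higher and 1.82% lower after adjustment. The difference between chromosome 13 and the rest was not tested, since it was picked from these values.

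**Figure D5:**
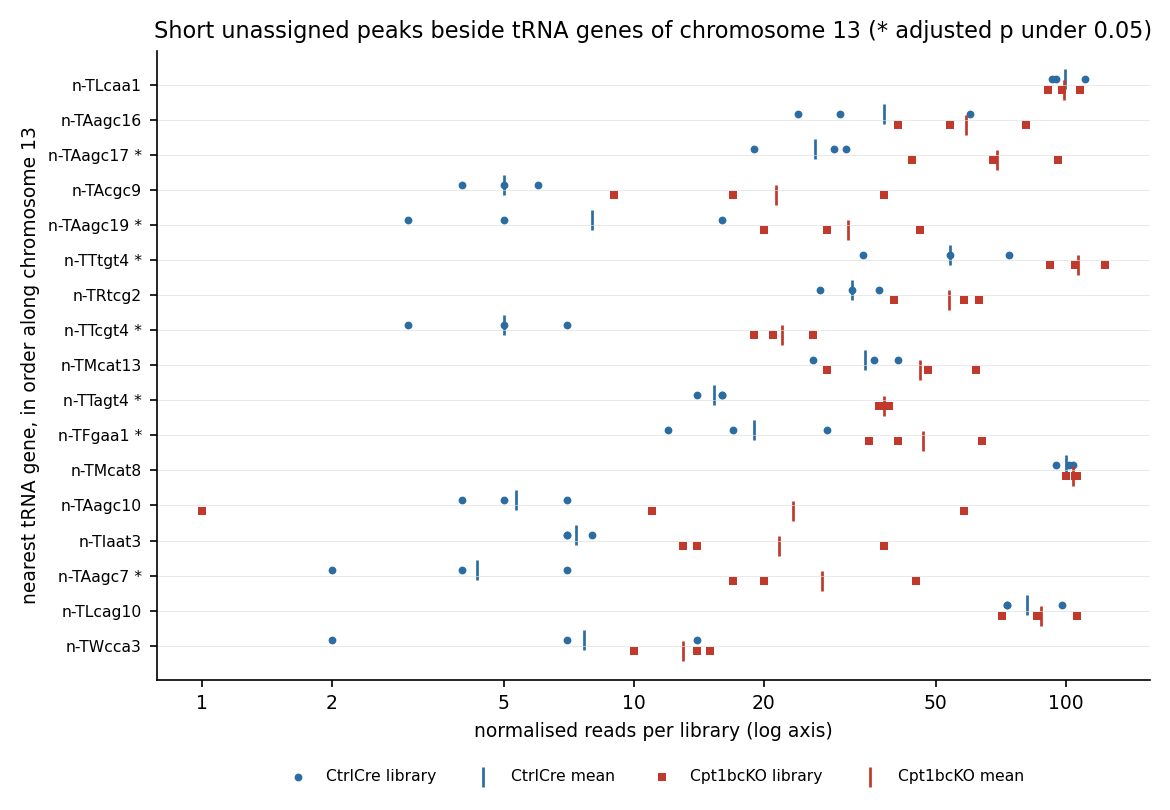
Normalised reads per library on a log axis for the 17 short unassigned peaks beside tRNA genes of chromosome 13, 1 row a peak in order along the chromosome, with circles for CtrlCre libraries, squares for Cpt1bcKO libraries and bars for the means. The 7 peaks with an asterisk have an adjusted p under 0.05, and the genotypes overlap at the peaks near 100 reads, such as n-TLcaa1 and n-TMcat8. For 3 of these 7 the CtrlCre mean was under 10, so their direction was fixed by the selection.

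Of 5 gene lists for this tissue and knockout, few genes held a short unassigned peak, and 3 peaks in contraction genes were called lower. The list of contraction and excitation genes held 12 peaks in 9 of 50 genes, with a median log2 difference of −0.19, 3 lower and none higher. The list of cardiac transcription factors held 11 peaks in 7 of 24 genes (median −0.25) and that of fatty acid and glucose metabolism 5 in 5 of 43 (median 0.11). That of H3K4 methylation enzymes held 4 in 3 of 22 (Kdm2b, Ash2l and Dpy30, median 0.03). That of cell cycle and survival genes held 4 in 3 of 28 (Ccnd3, Egln3 and Meis1, median −0.34). None of the peaks of these 4 lists was called by limma, and none had an unadjusted p under 0.05. Of the 3 called peaks, those in Rbm20 and Kcnj2 had Cpt1bcKO means under 10 (9.67 and 3) and entered the selection only through CtrlCre, so their direction was fixed by the selection. The share of all tested peaks called lower is 1.82%.

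The 3 called peaks lay in Rbm20, a regulator of titin splicing, in Kcnj2, an inward rectifier potassium channel gene, and in Trdn, which encodes triadin, a partner of the ryanodine receptor. The intronic Rbm20 peak upeak-15306 (chr19:53689663-53691465) held 20, 35 and 33 normalised reads in CtrlCre and 11, 7 and 11 in Cpt1bcKO (log2 difference −1.49, SE 0.39, limma adjusted p = 0.0372). The promoter peak of Rbm20 held 511 ± 58.5 and 491 ± 80.7 (log2 difference −0.06). The Kcnj2 peak upeak-10402 (chr11:111072943-111073680), in coding sequence, held 21, 9 and 28 against 1, 8 and 0, so 2 Cpt1bcKO libraries were under the floor and the lowest CtrlCre value was close to the highest Cpt1bcKO value (limma adjusted p = 0.0395). Its promoter peak held 474 ± 34.2 and 376 ± 27.6 (log2 difference −0.33, limma adjusted p = 0.0674). The intronic Trdn peak upeak-8689 (chr10:33091549-33093448) held 30, 30 and 46 against 18, 14 and 12 (log2 difference −1.20, SE 0.33, limma adjusted p = 0.0499), and the promoter peak, 359 ± 18.2 and 255 ± 62.5, was also lower (log2 difference −0.52, limma adjusted p = 0.0194). These calls were fragile, since upeak-15306 stayed past the threshold in 5 of 13 alternative settings, upeak-10402 in 8 of 13 and upeak-8689 in 5 of 14.

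The 6 short unassigned peaks with the highest means, all over an annotated start, showed no difference beyond their spread. The highest, upeak-14970 (chr19:8773933-8775532), covers a start of Tmem179b and overlaps Taf6l, a subunit gene of histone acetyltransferase complexes. It held 207, 200 and 222 normalised reads in CtrlCre and 213, 225 and 199 in Cpt1bcKO (log2 difference 0.02). At Ash2l, a core subunit of the SET1 and MLL complexes, upeak-6962 (chr8:25839963-25841812) held 220, 212 and 205 against 197, 210 and 201 (log2 difference −0.07). The others lay at Gne, of sialic acid synthesis (0.08), Vgll4, a cofactor of TEAD (−0.10), the long noncoding Mir670hg (−0.03) and Tank, an adaptor of TRAF proteins (−0.03). Their standard errors were 0.10 to 0.11, and the genotypes overlapped in each of the 6. Per length they held 106 to 167 normalised reads per kb, against the median of 31.6.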

How the data were processed

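H3K4me3 ChIP–seq libraries from sorted CM nuclei of 3 CtrlCre and 3 Cpt1bcKO samples were used. Per the labels there were also 6 input libraries, which have no columns of their own and were not used. Per the submitters' processing notes and the methods, the authors used FastQC 0.11.8, Trimmomatic 0.39, STAR 2.6.1d with unique alignments, Picard 2.21.7 and DESeq2 1.26.0 on mm10 (GRCm38.p5). They called peaks with MUSIC against input, removed blacklisted regions, merged peaks into 1 set and assigned the gene whose promoter lay within 5000 bases. For each peak the authors deposited counts divided by DESeq2 size factors and rounded to whole numbers, treated here as a score rather than a count, and the unrounded genotype means of the same signal. Columns of the authors' own log2 fold changes and p-values were not used.

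The whole counts underlying the rounded values were solved for from the genotype means, with 1 solution for each of the 15848 peaks, and gave the depths and counting errors. These cover counting error only, since reads are not independent molecules. Differences were tested with limma 3.58.1 in R 4.3.3 (lmFit, eBayes with trend, two-sided, genotype alone) on log2(value + 1), over 15039 peaks with a mean of at least 10, with Benjamini-Hochberg adjustment over all of them. 809 peaks fell below that mean. On simulated data the fit recovered 33% of 2-fold and 60% of 3-fold changes placed among the short unassigned peaks, with 2.11% false calls. For changes placed among all tested peaks it recovered 78% and 88%, with 2.92% false calls. Tables were handled in Python 3.11.15 with pandas 2.3.3 and numpy 2.4.6.

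Transcript starts and gene parts came from GENCODE vM21 and tRNA genes from RefSeq, both on mm10. Of 12686 assigned gene IDs, 12668 were found in vM21, all on the same chromosome. Peak positions were read as 1-based. Chromosome 18 holds 79 of the peaks. No sequence of it is printed and no tRNA annotation of it was used, but its peaks are included in the GC, CpG and motif values.

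The peaks, the gene lists and the tests were chosen with earlier results of these data known. Named peaks were up to 12 in each direction by p among those with an adjusted p under 0.05, the 6 highest by mean, and those in 5 gene lists with an unadjusted p under 0.05, up to 8 a list. The tRNA peaks were added after their values were seen, and 1 called peak on chromosome 18 is not named. Alternatives were other pseudocounts and limits of mean, quantile scaling, scaling to the median of assigned peaks, a GC correction, voom on the recovered counts, a replicate block, and leaving out each library.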

Additional observations from a re-analysis of the deposited data

How the results depend on the processing

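Of the 32 named peaks past the threshold, 15 were called under each of 14 settings; among the settings that kept all libraries 245 values kept their call and 6 lost it, and among those without 1 library 144 kept it and 48 lost it. In the full data 22 peaks were higher and 40 lower after adjustment, beside 167 and 274 over all tested peaks. Leaving out 1 library gave 6 to 26 higher and 13 to 38 lower, the counts falling most without Cpt1bcKO replicate 3 (6 higher, 25 lower), CtrlCre replicate 1 (11 and 13), Cpt1bcKO replicate 2 (10 higher), Cpt1bcKO replicate 1 (14 higher) and CtrlCre replicate 3 (24 lower), all with fewer libraries in the test. Over all tested peaks the same settings gave 85 to 180 higher and 139 to 251 lower. Without Cpt1bcKO replicate 3 these were 85 and 161, and without CtrlCre replicate 1 90 and 139. The count of chromosome 13 tRNA peaks called higher, 7 in the full data, ranged from 0 to 8 (0 without Cpt1bcKO replicate 3, 2 without CtrlCre replicate 1, 3 and 4 without Cpt1bcKO replicates 2 and 1). A limit of 20 on the mean left 4 of them, and 135 peaks lower at an unadjusted p under 0.05 (211 with the limit of 10), with fewer peaks tested. Quantile normalization moved the median difference to −0.0239 and the log2 share to −0.0394, and the cause was not tested. Restricting the set by construction gave, for peaks over 5000 bases from a start, 12 higher after adjustment, 43 higher at an unadjusted p, a median of −0.13 and a log2 share of −0.14. For widths under 1000 bases it gave 3 higher and 11 lower after adjustment, and 39 and 99 at an unadjusted p. Without the distant intron peaks 25 were lower, and without the chromosome 13 tRNA peaks 15 were higher (both chosen after seeing the data). Lower peaks made up 64.5% of the calls in the full data, 58.0% (GC correction) to 70.1% (voom on recovered counts) in the settings with all libraries, and 54.2% (without CtrlCre replicate 1) to 80.6% (without Cpt1bcKO replicate 3) without 1 library. The GC correction left 40 lower and gave 29 higher, voom gave 54 and 23, so this share moved with the counts of either direction. Over all tested peaks the GC correction gave 273 lower and 272 higher, and voom 324 and 171.

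Among peaks that were not called, small differences changed sign. The peak upeak-14970 (0.02) gave −0.000692 with voom and −0.0248 to 0.0634 without 1 library, upeak-1302 at Tank (−0.03) gave 0.000891 with voom and −0.103 to 0.0192, upeak-1497 at Mir670hg (−0.03) gave −0.110 to 0.0459, n-TLcaa1 (−0.01) gave 0.10 under the GC correction and −0.0725 to 0.0706, n-TLcag10 (0.10) gave −0.0430 to 0.243, and n-TAagc10 (0.85) gave −0.34 to 2.10. Rbm20 and Trdn were called in 5 of 13 and 5 of 14 settings.

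With the replicate number as a replicate block, 22 peaks were higher and 34 lower, the median was −0.09 and 7 tRNA peaks were called. Over all tested peaks 138 were higher and 232 lower in this setting. The log2 share has no such fit. The numbers did not pair the libraries, since the correlations of same-numbered libraries' deviations were 0.0759, −0.0812 and 0.105 over all tested peaks. Depth limits the low peaks most: counting error at the median peak was 30.2% in CtrlCre replicate 2.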
